A study of Mus musculus with 8 samples.

Results

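The data described here are the 44 genes of fat cells, lipid droplets and fat synthesis in RNA-seq of mouse hindlimb long bone, chosen by gene symbol from a deposited table of 55421 genes. All 44 symbols had 1 row each. The libraries came from 8 wild-type male C57BL/6 mice, 15 weeks old when treated and killed at day 30: 4 received 1 intraperitoneal dose of doxorubicin (10 mg/kg), an anthracycline used against cancer, and 4 received saline vehicle. Tibiae and femurs were cleaned, lost their ends and were spun to remove marrow, and the bones of 1 mouse made 1 library, so each replicate was a separate animal. The study uses the drug as a model of senescence after chemotherapy, and the comparison asked here is whether the fat genes differed between the 2 treatments. Libraries held 23699525 to 35747083 counts, and vehicle 3 stood apart in its low skeletal muscle RNA, for which values are given below. Of the members, 41 passed the filter on low counts and were tested. The genes were also divided into 11 taken as fat-cell-specific, of which 8 were tested, and 33 taken as widely expressed, all of which were tested. The division is not strict. Plin4 is in the first class although skeletal muscle also makes it. Pck1 and Pnpla3 are in the second, although they are described below in liver and fat only.

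Fat cells store triglyceride in a droplet coated by perilipins and release it through a chain of lipases. Bone marrow holds its own fat cells, which expand after irradiation or chemotherapy in rodents and in people. In mouse marrow, the stromal cells marked by Lepr and Cxcl12 also transcribe Adipoq while holding little fat, so Adipoq and the droplet coat genes need not report the same cells. Skeletal muscle, brown fat, macrophages and endothelium use many of the same lipid genes. In a bulk library, fewer cells of a type and less RNA per cell cannot be told apart.

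The fat-cell-specific genes covered nearly the whole range of levels. Levels between genes are compared here as CPM (counts relative to the library total, scaled by TMM, the trimmed mean of M values) divided by the summed exon length in kb of each gene. Adipoq, which encodes the hormone adiponectin, averaged 44.6 CPM per kb in doxorubicin and 45.3 CPM per kb in vehicle bones, below only Fabp4 and Cd36 among the 44. Plin1, the perilipin that coats the large droplet of mature fat cells, averaged 0.868 and 0.286 CPM per kb in doxorubicin and vehicle bones. Lep, which encodes leptin, averaged 0.161 and 0.100 CPM per kb in doxorubicin and vehicle bones. Among the perilipins, over all 8 libraries Plin2 averaged 13.1, Plin3 8.83, Plin4 8.54, Plin5 1.01 and Plin1 0.577 CPM per kb. Plin2 and Plin3 are made by many cells, and Plin4 is counted here among the fat-cell-specific genes. The low Plin1 beside the high Adipoq is a difference in level within each group, whatever the treatment.

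**Figure D1:**
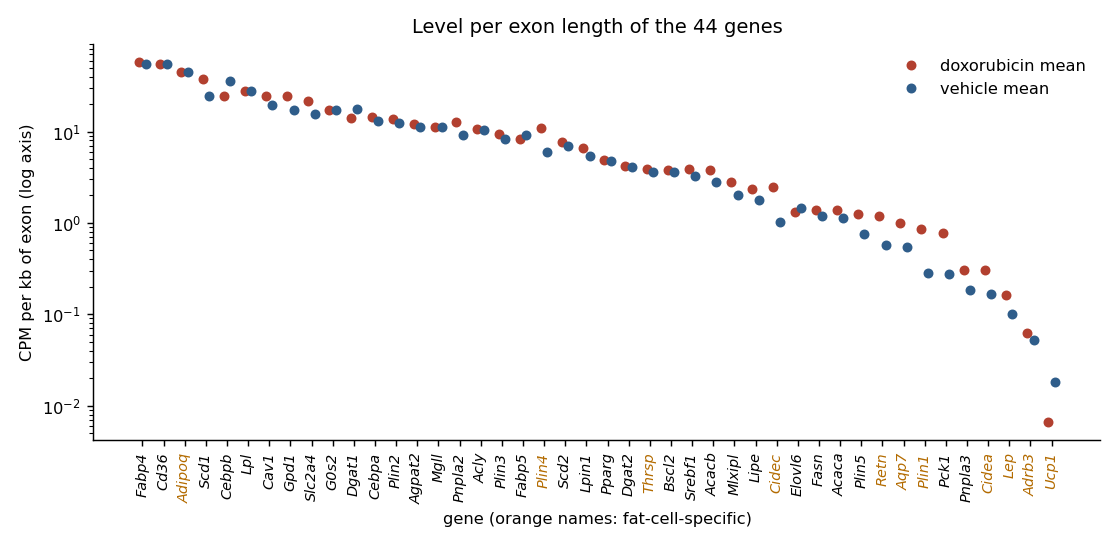
Mean level of each of the 44 genes in doxorubicin (red) and vehicle (blue) bones, as CPM per kb of exon on a log axis, ordered by the mean of all 8 libraries. Fabp4, Cd36 and Adipoq stand at the top and Lep, Adrb3 and Ucp1 at the bottom, and among the tested genes the gap between the group means is widest for Plin1, Pck1 and Cidec.

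Ucp1, the uncoupling protein of brown fat, had 1, 0, 0 and 0 counts in doxorubicin bones 1 to 4 and 0, 0, 2 and 2 counts in vehicle bones 1 to 4. A count of 0 allowed up to 3 counts, or between 0.0762 and 0.14 CPM depending on the library, by counting error alone. Adrb3, the beta-3 adrenergic receptor of fat cells, had 0, 21, 1 and 4 counts in doxorubicin and 1, 2, 12 and 8 counts in vehicle bones. Cidea, a droplet protein of brown fat, had 15, 8, 8 and 5 counts in doxorubicin and 9, 3, 8 and 2 counts in vehicle bones. Of the exon bases of Adrb3, 24.9% overlap the gene Gm45470. None of these 3 genes was tested, and their counts overlapped between the groups.

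The windows before the transcription starts are shown for 3 fat-cell genes with high values in doxorubicin bones (Retn, Plin1 and Cidec) and for Adipoq, whose group means were close together. They are the 250 bases upstream of each start, from RefSeq on GRCm38.p6, and capitals mark matches to TTNCNNAA, a short form of the site of C/EBP factors, on either strand. The windows are Retn at chr8:3655520-3655769 on the plus strand, Plin1 at chr7:79732777-79733026 on the minus strand, Cidec at chr6:113435761-113436010 for 1 start and chr6:113434765-113435014 for the other on the minus strand, and Adipoq at chr16:23146286-23146535 on the plus strand.
Retn: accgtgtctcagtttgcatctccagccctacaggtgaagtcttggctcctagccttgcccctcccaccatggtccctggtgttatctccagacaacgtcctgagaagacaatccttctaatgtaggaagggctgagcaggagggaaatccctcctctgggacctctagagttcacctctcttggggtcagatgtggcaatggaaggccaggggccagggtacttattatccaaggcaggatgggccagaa
Plin1: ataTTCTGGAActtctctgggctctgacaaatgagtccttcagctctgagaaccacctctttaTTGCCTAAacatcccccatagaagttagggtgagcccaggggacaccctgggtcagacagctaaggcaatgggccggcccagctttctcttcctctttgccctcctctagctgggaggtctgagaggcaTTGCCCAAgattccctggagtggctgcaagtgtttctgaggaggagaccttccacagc
Cidec, upstream start: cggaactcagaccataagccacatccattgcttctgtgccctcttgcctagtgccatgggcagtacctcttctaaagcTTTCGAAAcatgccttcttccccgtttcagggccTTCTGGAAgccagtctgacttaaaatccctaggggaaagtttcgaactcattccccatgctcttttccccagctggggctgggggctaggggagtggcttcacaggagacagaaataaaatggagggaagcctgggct
Cidec, downstream start: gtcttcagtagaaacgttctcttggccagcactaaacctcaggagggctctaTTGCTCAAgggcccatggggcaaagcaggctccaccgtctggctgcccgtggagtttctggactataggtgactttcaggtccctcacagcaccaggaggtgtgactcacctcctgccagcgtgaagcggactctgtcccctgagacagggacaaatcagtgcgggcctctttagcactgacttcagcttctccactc
Adipoq: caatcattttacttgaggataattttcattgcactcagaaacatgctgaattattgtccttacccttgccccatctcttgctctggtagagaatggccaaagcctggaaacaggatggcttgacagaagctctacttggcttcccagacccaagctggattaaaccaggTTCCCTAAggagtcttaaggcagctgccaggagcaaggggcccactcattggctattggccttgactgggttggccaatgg
Plin1 held 3 matches, the Cidec windows 2 and 1, Adipoq 1 and Retn 0. RefSeq gave windows for 33 of the 44 genes, 46 windows in all. Among these, 26.1% held the letters TTNCNNAA, against 36.8% of all 32851 windows. The longer direct repeat bound by PPARG with its partner RXR was in 0 of the 46 and in 0.338% of all windows, and the SREBP motif was in 0 of the 46 and in 0.192% of all, each on either strand. CCAAT was in 34.8% of the windows of these genes and 33.8% of all, and CACGTG in 6.52% and 6.02%. These are matches of letters in short windows only.

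None of the 41 tested genes passed the threshold between doxorubicin and vehicle bones. At an adjusted p under 0.05 in edgeR's quasi-likelihood test over 17035 genes, 0 members and 0% of all tested genes were called, and DESeq2 called 0 members and 0.17% of all genes. At an unadjusted p under 0.05, 5 members were higher (Retn, Plin1, Cidec, Aqp7 and Pck1) and 0 lower, where 2.13% of all tested genes were higher and 3.23% lower (5.36% either way). Retn was the 1 member whose groups did not overlap, and it was higher. Over all tested genes, 1.64% were separated and higher and 1.95% separated and lower (3.59% either way). Log2 fold changes (doxorubicin over vehicle throughout) were above 0 for 33 of the 41, against 57.2% of all tested genes, and had a size of at least 0.5 for 12 (29.3%), against 7.9% of all tested genes. The members vary together, so these counts are not separate observations.

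The fat-cell-specific genes had the wider differences. Their 8 tested members had a median log2 fold change of 0.89, with 7 above 0, and the 33 widely expressed ones a median of 0.17, with 26 above 0. The median over all tested genes was 0.04. The median of the fat-cell-specific genes lay between 0.58 (without vehicle 3) and 1.12 (without vehicle 1) when any 1 library was left out, and was 0.66 with the skeletal muscle genes as a covariate. That of the widely expressed genes was 0.10 without vehicle 2 and 0.11 without vehicle 3, and 0.050 without doxorubicin 2 and vehicle 2 together. Of the 8 fat-cell-specific genes, doxorubicin 2 was the highest library in 5, against 9.46% of all tested genes. Vehicle 2 was the lowest library in 4 of the 8, against 18.6% of all tested genes. By role, log2 fold changes were above 0 for 2 of 3 hormone genes (median 0.69), 8 of 8 droplet genes (0.54) and 4 of 6 lipolysis genes (0.44). They were above 0 for 3 of 5 uptake genes (0.0048) and 5 of 6 transcriptional regulators (0.14). So were 6 of 7 genes of fatty acid synthesis (0.20) and 5 of 6 of triglyceride synthesis (0.18). A gene of low level passes the filter more easily where it is high, so these medians describe the tested members and not all 44.

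**Figure D2:**
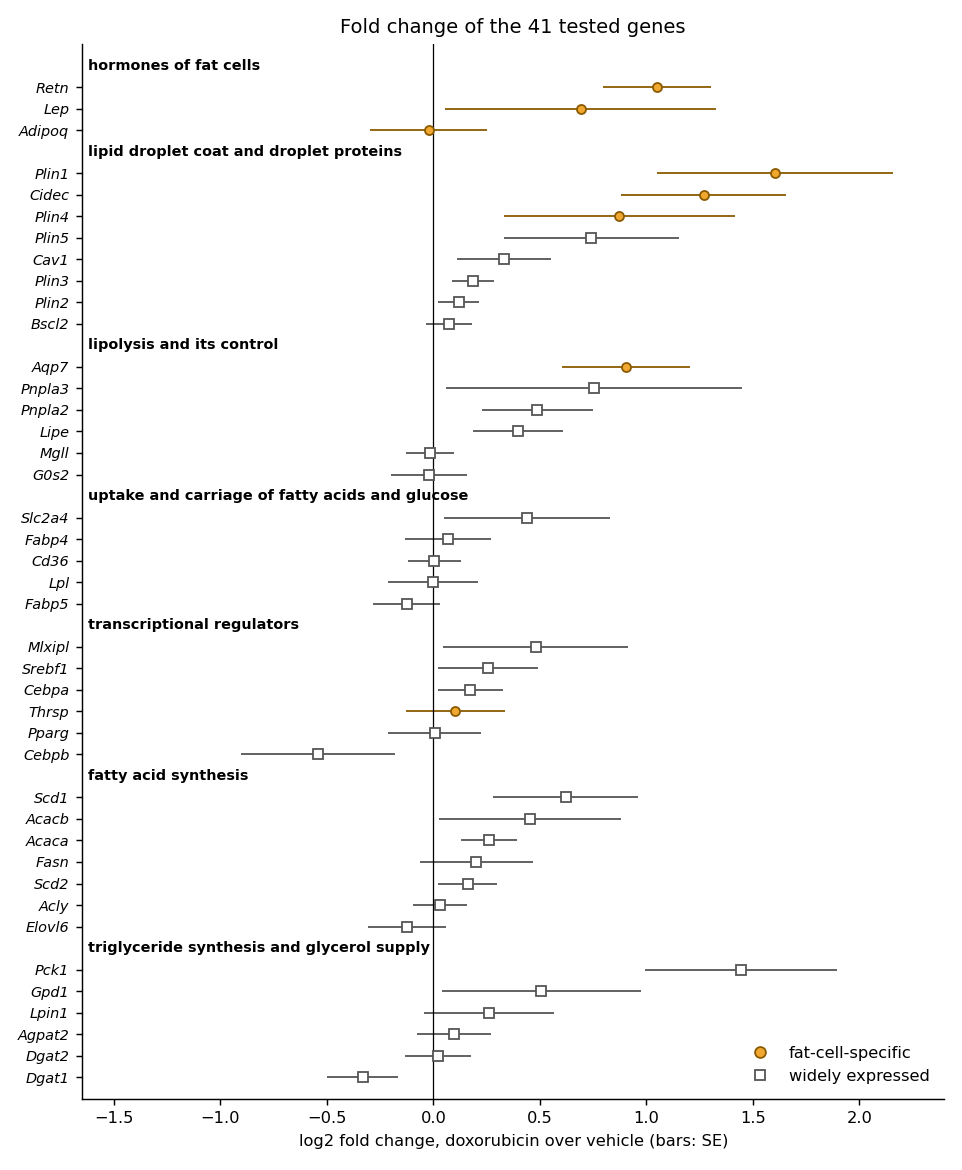
Log2 fold change of doxorubicin over vehicle for the 41 tested genes, grouped by role, with bars of 1 SE; filled circles are fat-cell-specific genes and open squares widely expressed ones. Plin1, Pck1, Cidec and Retn lie farthest to the right, at log2 fold changes of 1.60, 1.45, 1.27 and 1.05, while Adipoq, Cd36, Lpl and Pparg lie close to 0.

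Retn encodes resistin, a hormone that mouse fat cells secrete. It measured 1.65, 2.49, 1.48 and 1.91 CPM in doxorubicin bones 1 to 4, against 0.824, 0.700, 1.19 and 0.878 CPM in vehicle bones 1 to 4. Every doxorubicin bone lay above every vehicle bone. The log2 difference was 1.05 ± 0.25 (SE; 95% interval 0.49 to 1.61), with an unadjusted p of 0.00197 and an adjusted p of 0.703 in edgeR, and it stayed between 0.85 and 1.19 when any 1 library was left out. The counts behind it were small, between 38 and 83 in doxorubicin and between 15 and 47 in vehicle libraries.

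Plin1 measured 3.22, 8.95, 1.71 and 2.26 CPM in doxorubicin bones, against 1.72, 0.653, 0.914 and 2.03 CPM in vehicle bones. Cidec, which fuses droplets into a single large one, measured 3.74, 8.38, 2.83 and 3.56 CPM in doxorubicin bones, against 3.00, 1.21, 1.5 and 1.99 CPM in vehicle bones. Aqp7, the channel through which glycerol leaves fat cells, measured 3.00, 3.69, 1.81 and 2.87 CPM in doxorubicin bones, against 1.80, 1.63, 0.838 and 1.86 CPM in vehicle bones. In each of these genes doxorubicin 2 was the highest library, and doxorubicin 3 was the only doxorubicin library within the vehicle range. Pck1, whose enzyme supplies glycerol phosphate for triglyceride in fat cells and makes glucose in liver, was also highest in doxorubicin 2 and within the vehicle range in doxorubicin 3, with 3.39, 4.18, 1.02 and 2.08 CPM in doxorubicin bones and 1.09, 0.420, 1.35 and 0.979 CPM in vehicle bones.

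The log2 differences were 1.60 ± 0.56 for Plin1, 1.27 ± 0.39 for Cidec, 0.90 ± 0.30 for Aqp7 and 1.45 ± 0.45 for Pck1 (SE), as folds 3.04, 2.41, 1.87 and 2.72. Their adjusted p in edgeR lay between 0.825 and 0.856. Without doxorubicin 2 the differences were 0.81 for Plin1, 0.78 for Cidec, 0.71 for Aqp7 and 1.11 for Pck1, and the unadjusted p of Plin1 (0.0716) and of Aqp7 (0.0523) was then above 0.05. Plin1 averaged 4.04 ± 3.34 CPM in doxorubicin and 1.33 ± 0.651 CPM in vehicle bones, and Retn 1.88 ± 0.442 and 0.899 ± 0.210 CPM in the same order (SD, n = 4 each). In GENCODE M21 on GRCm38, the genes lie at chr8:3655770-3660110 (Retn), chr7:79720218-79732903 (Plin1), chr6:113424634-113435760 (Cidec), chr4:41033074-41048139 (Aqp7) and chr2:173153048-173159273 (Pck1), and their exons overlap no other gene. These positions come from that annotation, since the build the submitters name, GRCh38, is a human one.

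**Figure D3:**
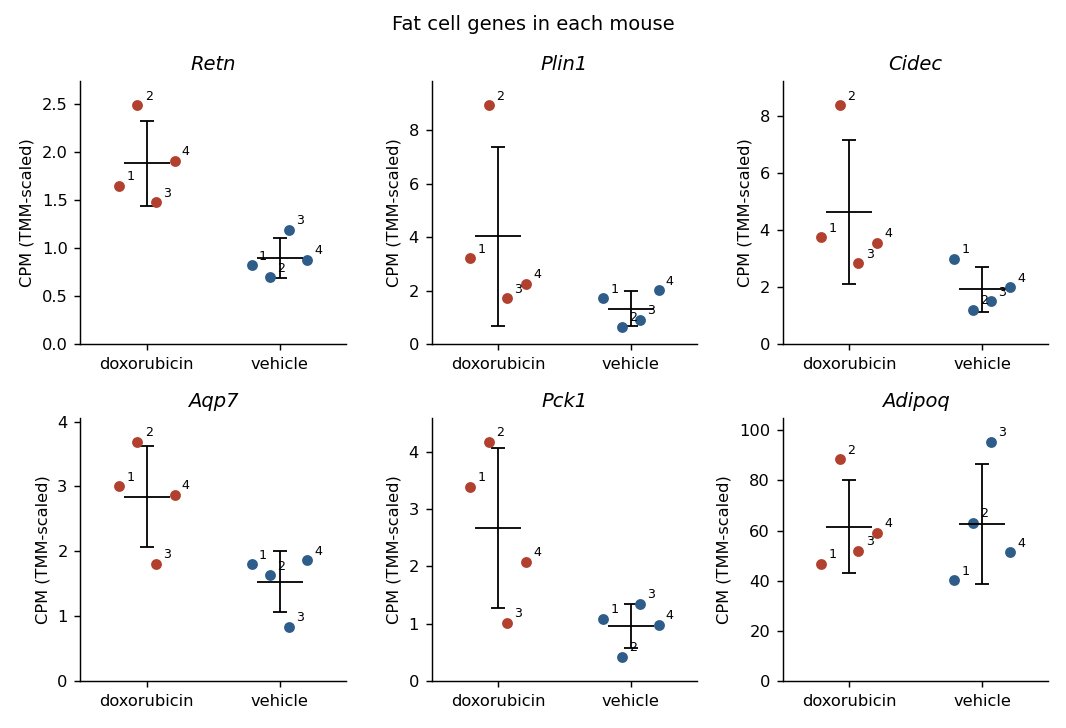
CPM of 6 genes in each mouse, doxorubicin (red) left of vehicle (blue), with the mouse number beside each point and the mean ± SD (n = 4) in black. In Retn the groups are apart, in Plin1, Cidec, Aqp7 and Pck1 doxorubicin 2 is highest and doxorubicin 3 falls within the vehicle range, and in Adipoq the groups overlap throughout.

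Lep had 0.217, 0.961, 0.198 and 0.782 CPM in doxorubicin bones, against 0.674, 0.0933, 0.203 and 0.371 CPM in vehicle bones. The groups overlapped, at between 2 and 32 counts a library, and the log2 difference of 0.69 ± 0.64 (SE) was 0.18 without doxorubicin 2, 0.42 without vehicle 2, 0.45 without vehicle 3 and 1.23 without vehicle 1. Plin4, a perilipin of fat cells that skeletal muscle also makes, measured 99.1, 58.3, 28.6 and 69.2 CPM in doxorubicin bones, against 60.5, 28.9, 7.92 and 42.1 CPM in vehicle bones. Its log2 difference was 0.87 ± 0.54 (SE; adjusted p = 0.856 in edgeR), and vehicle 3 was the lowest library. It was 0.50 without vehicle 3 and 0.56 without doxorubicin 1. Thrsp, a nuclear protein linked to fat synthesis, stood at 8.53 ± 1.58 CPM in doxorubicin and 7.97 ± 2.64 CPM in vehicle bones (SD, n = 4 each).

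Adipoq had group means that were close together. It measured 46.8, 88.5, 51.9 and 59.2 CPM in doxorubicin bones, against 40.2, 63.2, 95.5 and 51.4 CPM in vehicle bones, with vehicle 3 the highest library and vehicle 1 the lowest. The log2 difference was −0.02 ± 0.28 (SE), with a 95% interval of −0.64 to 0.59. Relations between libraries were computed for 6 pairs of genes over log2 CPM, with exact permutation p over 40320 pairings and adjustment over the 6. Plin1 and Cidec went together (n = 8, Pearson's r = 0.960, exact p = 0.00057, adjusted p = 0.00208; Spearman's rho = 0.929, exact p = 0.00223, adjusted p = 0.0134). So did Adipoq and Lepr, the leptin receptor gene of marrow stroma (n = 8, r = 0.918, exact p = 0.000694, adjusted p = 0.00208; rho = 0.881, exact p = 0.00724, adjusted p = 0.0217).

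Plin1 and Adipoq showed no such relation (n = 8, r = 0.0823, exact p = 0.854, adjusted p = 0.854; rho = −0.214, exact p = 0.619, adjusted p = 0.619), nor did Plin1 and Lepr (n = 8, r = −0.111, exact p = 0.767, adjusted p = 0.854; rho = −0.214, exact p = 0.619, adjusted p = 0.619). Adipoq and Cxcl12, a chemokine gene of the same stroma, had r = 0.860 (n = 8, exact p = 0.0057, adjusted p = 0.00856) and rho = 0.833 (exact p = 0.0154, adjusted p = 0.0308). Plin1 and Cfd had r = 0.909 (n = 8, exact p = 0.00337, adjusted p = 0.00675) and rho = 0.762 (exact p = 0.0368, adjusted p = 0.0551). Without the 2 libraries farthest from the median of the first gene, r was 0.827 for Plin1 and Cidec, 0.728 for Adipoq and Lepr, 0.594 for Adipoq and Cxcl12 and 0.518 for Plin1 and Cfd over 6 libraries. None of these 4 then passed 0.05 after adjustment, with fewer libraries over a narrower range. The libraries left out were doxorubicin 2 with vehicle 2 for Plin1 and vehicle 3 with doxorubicin 2 for Adipoq. With any 1 library left out, r stayed between 0.908 and 0.987 for Plin1 and Cidec and between 0.910 and 0.963 for Adipoq and Lepr, with adjusted exact permutation p of at most 0.0167. For Plin1 and Cfd r was 0.763 without doxorubicin 2 (adjusted exact permutation p = 0.0685), and for Adipoq and Cxcl12 it was 0.757 without vehicle 3 (adjusted exact permutation p = 0.0759). Without the 2 farthest libraries r was −0.714 for Plin1 and Adipoq and −0.861 for Plin1 and Lepr.

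Within the 4 doxorubicin and the 4 vehicle libraries taken alone, r was 0.986 and 0.841 for Plin1 and Cidec, 0.994 and 0.938 for Adipoq and Lepr, and 0.934 and 0.931 for Adipoq and Cxcl12. For Plin1 and Cfd it was 0.929 in doxorubicin and 0.617 in vehicle, for Plin1 and Adipoq 0.817 and −0.660, and for Plin1 and Lepr 0.766 and −0.521, in the same order. The pair of Plin1 and Adipoq thus differed in sign between the groups. These values over 4 libraries have no test. All genes of a library share its depth and scaling. The pairings behind the exact p took no account of treatment, so a group difference that both genes share also enters r over 8 libraries.

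**Figure D4:**
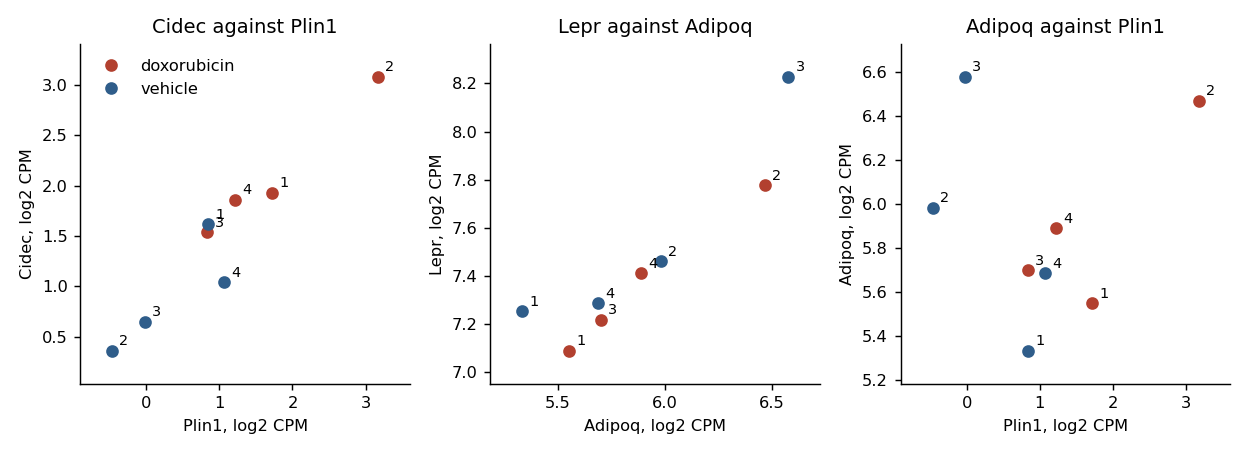
Log2 CPM of pairs of genes in the 8 libraries, doxorubicin in red and vehicle in blue, with the mouse number beside each point. Cidec runs with Plin1 (r = 0.960) and Lepr with Adipoq (r = 0.918), and Adipoq is scattered against Plin1 (r = 0.0823), with vehicle 3 high in Adipoq and low in Plin1.

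The genes that bring fatty acids into cells were close to equal in the 2 groups. Cd36, a fatty acid transporter of fat cells, endothelium and macrophages, measured 223, 219, 169 and 178 CPM in doxorubicin bones, against 188, 200, 201 and 197 CPM in vehicle bones. Its log2 difference was 0.0048 ± 0.12 (SE; 95% interval −0.27 to 0.28). Lpl, which frees fatty acids from lipoproteins at the vessel wall, measured 336, 344, 178 and 301 CPM in doxorubicin bones, against 307, 324, 233 and 298 CPM in vehicle bones. Fabp4, a fatty acid carrier of fat cells and of endothelium, measured 270, 340, 193 and 237 CPM in doxorubicin bones, against 215, 242, 325 and 210 CPM in vehicle bones. In all 3 genes doxorubicin 3 was the lowest library. The log2 differences were −0.0021 ± 0.21 for Lpl and 0.07 ± 0.20 for Fabp4 (SE), with intervals of −0.47 to 0.47 and −0.38 to 0.52. Fabp5, a related carrier, averaged 29.8 ± 2.77 CPM in doxorubicin and 32.5 ± 7.35 CPM in vehicle bones (SD, n = 4 each).

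Among the transcriptional regulators, Pparg, the nuclear receptor that fat cell formation depends on, measured 11.6, 20.4, 13.4 and 11.7 CPM in doxorubicin bones, against 11.1, 12.2, 17.7 and 15.9 CPM in vehicle bones. The log2 difference was 0.0065 ± 0.22 (SE; 95% interval −0.48 to 0.49). Cebpa, which acts with Pparg in fat cells and is also a factor of neutrophil precursors, averaged 38.5 ± 6.83 CPM in doxorubicin and 34.1 ± 4.87 CPM in vehicle bones (SD, n = 4 each). Cebpb, an early factor of fat cell formation that inflammatory signals also induce, was the member with the lowest log2 fold change, −0.54 ± 0.36 (SE; adjusted p = 0.856 in edgeR). It measured 44.6, 40.2, 34.2 and 30.3 CPM in doxorubicin bones, against 92.9, 66.2, 25.7 and 32.8 CPM in vehicle bones. Vehicle 1 and 2 were high and the other 2 lay below most doxorubicin bones; without vehicle 1 the difference was −0.15, and without vehicle 3 it was −0.82. Of its exon bases, 20.7% overlap Tmem189 on the opposite strand. Srebf1 and Mlxipl, the factors that turn on fat synthesis after insulin and sugar, had log2 differences of 0.26 ± 0.24 and 0.48 ± 0.43 (SE). Without vehicle 3 these were 0.091 and 0.12, and that of Mlxipl was 0.16 with the muscle genes as a covariate. Srebf1 was at 0.10 without vehicle 2 and 0.52 without vehicle 4, and Mlxipl at 0.22 without doxorubicin 1.

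In fatty acid synthesis, Scd1, the desaturase that makes monounsaturated fatty acids, had the widest difference. It measured 173, 329, 94.1 and 135 CPM in doxorubicin bones, against 154, 102, 113 and 106 CPM in vehicle bones. Doxorubicin 2 was the highest library and doxorubicin 3 the lowest of all 8. The log2 difference of 0.62 ± 0.34 (SE; adjusted p = 0.856 in edgeR) was 0.14 without doxorubicin 2. Scd2, a close copy that may share reads with Scd1, averaged 42.2 ± 6.85 CPM in doxorubicin and 37.8 ± 4.47 CPM in vehicle bones (SD, n = 4 each). Fasn, fatty acid synthase, measured 12, 19.7, 14.2 and 14.7 CPM in doxorubicin bones, against 16.2, 8.91, 8.91 and 18.7 CPM in vehicle bones, and the doxorubicin values lay inside the vehicle range but for doxorubicin 2. Its log2 difference was 0.20 ± 0.27 (SE), and ran from 0.015 without vehicle 3 to 0.39 without vehicle 4; it was 0.019 without doxorubicin 2, 0.041 without vehicle 2 and 0.32 without vehicle 1. Acly, which makes the acetyl-CoA, had 0.03 ± 0.13, Acaca, the carboxylase of the synthetic pathway, 0.26 ± 0.13 and Elovl6, which lengthens the chain, −0.12 ± 0.18 (log2 difference ± SE). Without vehicle 3 that of Acaca was 0.16.

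Triglyceride synthesis held Pck1, described above, and genes with smaller differences. Agpat2, which adds an acyl group to the glycerol backbone, and Lpin1, a phosphatase that turns phosphatidate into diacylglycerol, had log2 differences of 0.10 ± 0.17 and 0.26 ± 0.31 (SE). That of Lpin1 was −0.0076 without vehicle 3, 0.032 without doxorubicin 1 and 0.42 without vehicle 1. Dgat2, which completes triglyceride from newly made fatty acids, was at 0.02 ± 0.15. Dgat1, the other enzyme of that step, was at −0.33 ± 0.17 (SE; adjusted p = 0.856 in edgeR), with 43.3 ± 4.94 CPM in doxorubicin and 54.5 ± 12.9 CPM in vehicle bones (SD, n = 4 each). Without vehicle 1, its highest library, the difference was −0.17.

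Of the genes that release fat, Pnpla2, the lipase that starts the breakdown of triglyceride, measured 43.4, 41, 30.7 and 39.4 CPM in doxorubicin bones, against 34.5, 23.7, 14.6 and 37.4 CPM in vehicle bones. Doxorubicin 3 and vehicle 3 were the lowest of their groups. The log2 difference was 0.49 ± 0.26 (SE; adjusted p = 0.856 in edgeR), and 0.24 without vehicle 3. Lipe, the hormone-sensitive lipase that follows, had 0.40 ± 0.21, Mgll, which takes off the last fatty acid, −0.02 ± 0.11, and G0s2, an inhibitor of Pnpla2, −0.02 ± 0.18 (log2 difference ± SE). That of Lipe was 0.26 without doxorubicin 2 and 0.23 without vehicle 3. Pnpla3, a related lipase found mainly in liver and fat, was low, with 0.696, 0.721, 0.0659 and 0.391 CPM in doxorubicin bones and 0.412, 0.233, 0.0508 and 0.439 CPM in vehicle bones, and its groups overlapped. Its log2 difference was 0.75 ± 0.69 (SE), and 0.39 without doxorubicin 2, 0.30 without vehicle 3 and 0.40 with the muscle covariate.

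Among the droplet genes, Plin2, Plin3 and Bscl2 varied little between libraries. Plin2 averaged 47.8 ± 2.81 CPM in doxorubicin and 43.98 ± 2.97 CPM in vehicle bones, and Plin3 35.6 ± 3.31 and 31.3 ± 0.860 CPM in the same order (SD, n = 4 each). Between the highest and lowest of the 8 libraries, Plin2 differed 1.23-fold and Plin1 13.7-fold. The log2 differences were 0.12 ± 0.10 for Plin2, 0.19 ± 0.10 for Plin3 and 0.07 ± 0.11 for Bscl2 (SE). Bscl2 encodes seipin, a protein of droplet assembly.

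A further set of members shared the lowest library of the skeletal muscle genes, with the highest among the 2 libraries highest in muscle genes. In 9 of the 41 (Plin4, Plin5, Cav1, Pnpla2, Slc2a4, Mlxipl, Acacb, Gpd1 and Lpin1), vehicle 3 was the lowest library and doxorubicin 1 or 4 the highest, as was so for 12% of all tested genes. The 12 skeletal muscle genes together had 39330, 18290, 15260 and 35310 CPM in doxorubicin bones 1 to 4 and 26710, 27280, 4879 and 25010 CPM in vehicle bones 1 to 4. Gpd1, which makes glycerol phosphate from sugar in fat and muscle, measured 99.8, 48.5, 42.2 and 101 CPM in doxorubicin bones, against 64.9, 49.7, 14.5 and 75.9 CPM in vehicle bones. Plin5, the perilipin of heart and oxidative muscle, measured 3.26, 1.77, 1.65 and 3.86 CPM in doxorubicin bones, against 1.5, 1.68, 0.660 and 2.46 CPM in vehicle bones.

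With the muscle genes as a covariate, the log2 difference of Gpd1 was 0.11 instead of 0.51, that of Slc2a4, the insulin-dependent glucose transporter, 0.13 instead of 0.44, and that of Acacb, the muscle acetyl-CoA carboxylase, 0.16 instead of 0.45. It was 0.39 instead of 0.74 for Plin5 and 0.50 instead of 0.87 for Plin4. Cav1, of the plasma membrane pits called caveolae, had 0.18 instead of 0.33. Without vehicle 3 the log2 difference was 0.16 for Gpd1, 0.12 for Slc2a4, 0.11 for Acacb, 0.43 for Plin5 and 0.16 for Cav1. Without doxorubicin 1 it was 0.30 for Gpd1, 0.19 for Slc2a4 and 0.14 for Cav1; Gpd1 was at 0.31 without doxorubicin 4 and Cav1 at 0.21 without vehicle 4. With the covariate, for Retn it was 1.19, for Plin1 1.59, for Cidec 1.25, for Pck1 1.56 and for Aqp7 0.75, against 1.05, 1.60, 1.27, 1.45 and 0.90 with no covariate, which is a smaller shift than in Gpd1, Slc2a4 and Acacb.

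**Figure D5:**
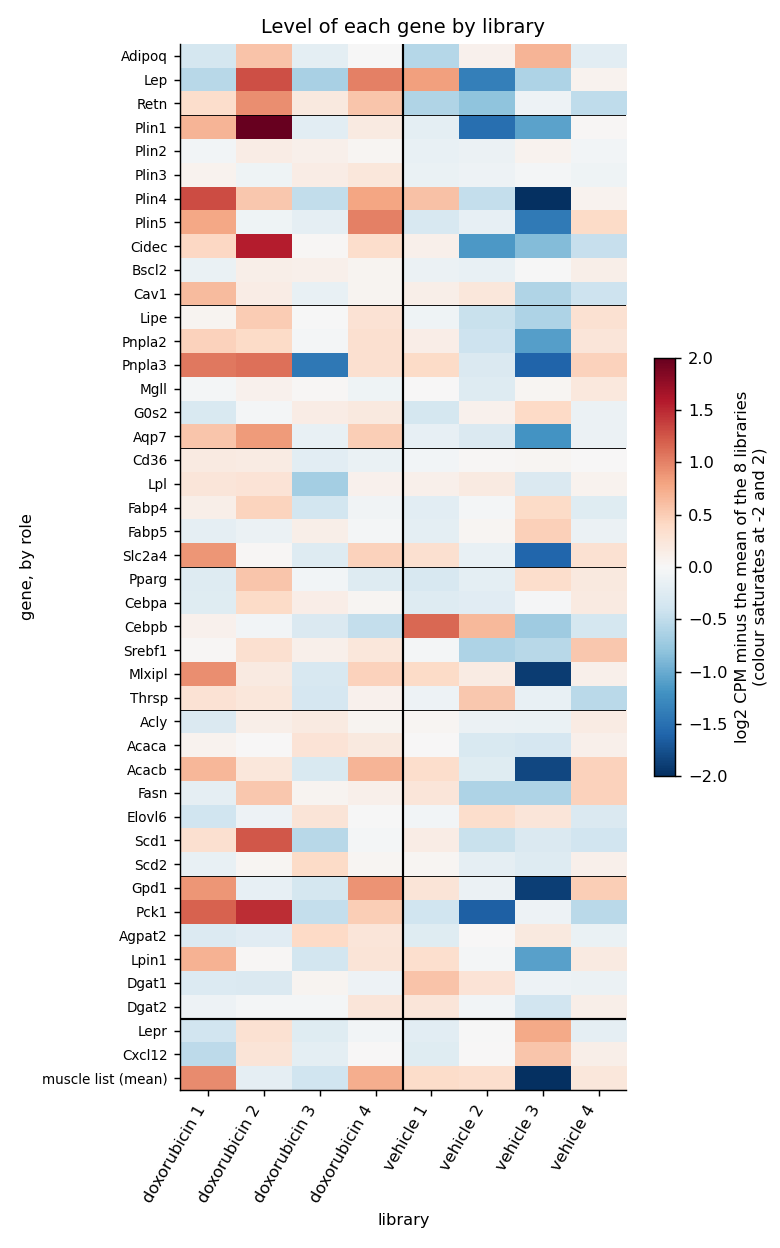
Log2 CPM of the 41 tested genes, of Lepr and Cxcl12 and of the mean of the muscle list in each library, minus the mean of the 8 libraries; doxorubicin libraries are left of the black line and roles are parted by thin lines. Doxorubicin 2 is red in Plin1, Cidec, Pck1, Scd1 and Lep, and vehicle 3 is blue in Plin4, Plin5, Slc2a4, Mlxipl, Acacb, Gpd1 and the muscle list.

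Doxorubicin 2 was the highest library for 16 of the 41 members (39%), against 9.46% of all tested genes. These were Lep, Retn, Plin1, Plin2, Cidec, Bscl2, Lipe, Pnpla3, Aqp7, Lpl, Fabp4, Pparg, Cebpa, Fasn, Scd1 and Pck1. Both library patterns, this one and the one of the muscle genes, were picked after the values were seen. The 8 endothelial genes also had their highest sum in doxorubicin 2, at 263 CPM, against 207 to 216 CPM in the other doxorubicin and 195 to 228 CPM in the vehicle bones. So did the osteoclast list, at 1436 CPM, and the bone cell list, at 8753 CPM. The part of these cells in the values of doxorubicin 2 was not tested.

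Other genes of fat cells were also mostly above 0. Of 10 further fat-cell genes, 9 had a log2 fold change above 0, against 57.2% of all tested genes, with a median of 0.45. In edgeR 0 passed the threshold and 3 were higher at an unadjusted p under 0.05, against 2.13% of all tested genes. The list was chosen with earlier results of these data known. In Gpam and Car3 of this list, vehicle 3 was the lowest library and doxorubicin 1 the highest, as in the summed muscle genes. Cfd, which encodes the secreted protease adipsin, measured 27.5, 70.9, 26.3 and 32.2 CPM in doxorubicin bones, against 16.9, 10.9, 18.3 and 16.5 CPM in vehicle bones, without overlap. Its log2 difference was 1.33 ± 0.32 (SE; adjusted p = 0.703 in edgeR and 0.0433 in DESeq2), and 0.84 without doxorubicin 2. Acvr1c, a receptor of the activin family in fat cells, measured 1.70, 2.88, 0.724 and 1.04 CPM in doxorubicin bones, against 0.862, 0.560, 0.584 and 0.405 CPM in vehicle bones. Lgals12, a galectin of fat droplets, measured 0.522, 1.62, 0.659 and 0.651 CPM in doxorubicin bones, against 0.562, 0.280, 0.406 and 0.506 CPM in vehicle bones. The log2 differences were 1.40 ± 0.44 for Acvr1c and 0.99 ± 0.41 for Lgals12 (SE), and 0.89 and 0.44 without doxorubicin 2. Of 12 genes of fatty acid oxidation, 11 were above 0 with a median of 0.21. At an unadjusted p under 0.05 in edgeR there were 0, against 5.36% of all tested genes either way. In all 12 oxidation genes but Cpt1a, vehicle 3 was the lowest library and doxorubicin 1 or 4 the highest, against 12% of all tested genes. The summed muscle genes had that order too, and the part of muscle in the oxidation genes was not tested.

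Markers of other cells were measured beside these genes. The mean log2 CPM of each of 8 lists was compared between the groups by exact permutation over 70 arrangements, with a smallest possible p of 0.0286. None differed after adjustment over the lists. A single list at that p has an adjusted p of 0.229, so the adjusted test could not call 1 list alone. Of all tested genes, 57.2% had a log2 fold change above 0. Of the list that marks Adipoq-expressing stroma, 4 of 12 genes were above 0, with summed levels of 2600 to 4020 CPM in doxorubicin and 2920 to 4720 CPM in vehicle bones (exact permutation p = 0.714, adjusted p = 0.882). All 12 muscle genes were above 0, with a median log2 fold change of 0.38 (exact permutation p = 0.6, adjusted p = 0.882). Of 8 macrophage genes 7 were below 0, and 4 were lower at an unadjusted p under 0.05 in edgeR, against 3.23% of all tested genes. Cd163 of this list had a log2 fold change of −1.18 (unadjusted p = 0.000691, adjusted p = 0.703 in edgeR). The macrophage genes summed to 271 to 373 CPM in doxorubicin and 286 to 454 CPM in vehicle bones. Their mean log2 CPM, the tested measure, averaged 3.876 in doxorubicin and 4.473 in vehicle bones (exact permutation p = 0.0857, adjusted p = 0.343). All 8 osteoclast genes were above 0, with summed levels of 1100 to 1440 CPM in doxorubicin and 572 to 1380 CPM in vehicle bones. Their mean log2 CPM, the tested measure, did not overlap, at 4.915 to 5.276 in doxorubicin and 3.936 to 4.904 in vehicle bones (exact permutation p = 0.0286, adjusted p = 0.229). Endothelial, osteoblast and osteocyte, neutrophil and erythroid lists had adjusted exact permutation p between 0.686 and 0.886, and all 8 erythroid genes were below 0. Although marrow had been spun out, the neutrophil list summed to 10100 to 21000 CPM in doxorubicin and 12700 to 22700 CPM in vehicle bones. The erythroid list summed to 13900 to 29900 and 17700 to 35000 CPM in the same order. The bone gene Col1a1 was present in every library, at 1270 to 6120 CPM in doxorubicin and 1080 to 3180 CPM in vehicle bones, and so were Bglap and Dmp1 of osteoblasts and osteocytes. No marker of these lists was at 0 in a whole group, and their part in the differences of the fat genes was not tested beyond the muscle covariate.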

How the data were processed

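The authors deposited 1 table of estimated counts per gene (expected counts, whole numbers) for 8 libraries. The submitters' processing notes name STAR 2.5.3a and RSEM 1.3.0, with no role, and the build GRCh38, although the identifiers are mouse genes. Per the labels' protocols, poly-A libraries were made with a stranded kit and molecular identifiers; whether counting used either, and which annotation, is not stated. Without a stated strand setting, reads from overlapping opposite genes cannot be told apart; 14 of the 44 members overlap another gene's exons in GENCODE M21 (GRCm38), which matched 55154 of 55421 identifiers and gave lengths. Libraries held 23699525 to 35747083 counts. Floors for a count of 0 cover counting error only; intervals of log2 fold changes come from the fit and include the spread between mice.

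Counts were rounded, filtered with filterByExpr (minimum count 10, minimum total count 15; 17035 genes), scaled by TMM and tested with edgeR 4.0.16 (R 4.3.3), robust quasi-likelihood, two-sided, Benjamini-Hochberg, threshold 0.05, no covariate. SE came from the F statistic. DESeq2 1.42.0 was an alternative. Log2 CPM used a prior count of 2. The test was checked on simulated counts. Chi-square per degree of freedom over the 28 library pairs was 26.2 to 264, so no library was a duplicate. Members and lists were chosen with earlier results of these data known. Values in every library are given for members with an unadjusted p under 0.05, separate groups, a log2 fold change of at least 0.5 in size, or on a fixed list (Adipoq, Lep, Plin1, Cidec, Pparg, Cd36, Lpl, Fabp4, Scd1, Fasn, Pnpla2, Ucp1), and others by mean or difference. Alternatives were other scalings and filters, DESeq2, a muscle covariate (mean log2 CPM of 12 genes), the replicate number as a block and each library left out.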

Additional observations from a re-analysis of the deposited data

Results flagged for a closer look

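Cidec in doxorubicin 2, at 8.38 CPM, lay far from the other doxorubicin libraries, which held 3.74, 2.83 and 3.56 CPM: the gap to the next library was 0.836 of the range of the group, above Dixon's critical value for 4 samples. It was the 1 flag among 82 groups examined, and chance flags about 1 in 20 groups. Its log2 difference was 1.27 with that library and 0.78 without it.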

How the results depend on the processing

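The count of genes past the threshold, 0 higher and 0 lower of 17035 in edgeR with 913 at an unadjusted p under 0.05, was 1 higher with no filter on low counts and 7 higher and 22 lower with DESeq2; no member was among them in any setting. Of 285 log2 differences of members under the other settings, 265 kept their direction and 20 turned; the cause was not tested. Cd36 (0.0048) was at −0.00798 with DESeq2 size factors, −0.00796 with DESeq2, −0.0553 with library size only, −0.0084 with no filter, −0.00069 with the muscle covariate and −0.0055 with the replicate block. Pparg (0.0065) was at −0.0022 with DESeq2 size factors, −0.0023 with DESeq2, −0.0483 with library size only, −0.0036 with no filter and −0.0129 with the replicate block. Library size only gave −0.0077 for Acly and −0.0225 for Dgat2. The muscle covariate gave 0.225 for Adipoq, −0.061 for Dgat2, 0.0152 for Fabp5, 0.11 for G0s2, −0.0010 for Lpin1 and 0.0049 for Mgll, and the replicate block 0.0105 for Adipoq.

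Deviations of same-numbered libraries correlated at 0.342, −0.266, 0.43 and 0.0902. Differently numbered libraries were not compared, so these values cannot decide whether the replicate numbers paired the mice. With the replicate block 0 genes passed, and 14 members instead of 5 had an unadjusted p under 0.05 and were higher; that count was 3 without doxorubicin 2 and 10 without vehicle 4. Over all genes the count of higher genes moved too, at 362 with no block, 791 with it, 229 without doxorubicin 2 and 700 without vehicle 4. Cebpb and Dgat1 had such a p and were lower with the muscle covariate (509 lower genes in all) and without vehicle 3 (513), and Dgat1 alone without vehicle 4 (1084), without doxorubicin 3 (954) and with no filter (843), against 0 members and 551 genes in the main setting.

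Members whose log2 difference turned when 1 library was left out ran from −0.0474 to 0.107 for Acly, −0.279 to 0.220 for Adipoq, −0.0553 to 0.176 for Agpat2, −0.0789 to 0.0498 for Cd36, −0.128 to 0.114 for Dgat2, −0.117 to 0.189 for Fabp4, −0.211 to 0.00261 for Fabp5, −0.130 to 0.0938 for G0s2, −0.00764 to 0.424 for Lpin1, −0.133 to 0.146 for Lpl, −0.110 to 0.0303 for Mgll, −0.247 to 0.0953 for Pparg and −0.0704 to 0.327 for Thrsp.

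With 1 library left out, r ran from 0.908 to 0.987 for Plin1 and Cidec, 0.910 to 0.963 for Adipoq and Lepr, 0.757 to 0.919 for Adipoq and Cxcl12, 0.763 to 0.941 for Plin1 and Cfd, −0.623 to 0.463 for Plin1 and Adipoq and −0.636 to 0.419 for Plin1 and Lepr. Without the 2 libraries farthest from the median of the first gene, r was 0.594 for Adipoq and Cxcl12 (adjusted exact p = 0.262), 0.728 for Adipoq and Lepr (0.178), 0.518 for Plin1 and Cfd (0.328), 0.827 for Plin1 and Cidec (0.117) and −0.714 for Plin1 and Adipoq (0.206), over 6 libraries. For Plin1 and Lepr r was then −0.861, the largest in size of the 6 relations. Over all 8 libraries r of that pair was −0.111 (exact permutation p = 0.767, adjusted p = 0.854). It was 0.766 within the doxorubicin and −0.521 within the vehicle libraries. The group difference in mean log2 CPM with 1 library left out ran from −0.175 to 0.0693 for stroma, −0.273 to 0.083 for neutrophil, −0.12 to 0.284 for bone and −0.037 to 0.773 for muscle genes. Depth limits the low genes: Lep had 2 to 32 counts and Pnpla3 2 to 24 counts a library.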
